A study of Mus musculus with 6 samples.

Results

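The guanylate-binding protein (Gbp) genes encode large GTPases that are switched on by interferons. The family is described here across 2 kinds of mouse embryonic stem cell. One is the wild-type line E14K, and the other lacks both genes of the kinase Gsk-3 (genotype Gsk-3a-/-; Gsk-3b-/-) and is abbreviated DKO. Its members were all probe sets that the platform annotation assigned to exactly 1 gene out of Gbp2, Gbp2b (called Gbp1 in older annotation), Gbp3, Gbp4, Gbp5, Gbp6, Gbp7, Gbp8 and Gbp9. There were 9 such probe sets for 6 of the 9 genes, out of 34958 single-gene probe sets for 18194 genes on the array. Gbp4 was represented only by 1 probe set that it shares with Gbp8, and for Gbp5 and Gbp9 no probe set was analysed here. The family was taken up because Gbp2, Gbp2b and Gbp3 were among the genes that fell most in DKO cells in this same comparison. Its intensities are therefore given as a description. The fit across all genes also held its probe sets, and nothing is read from their calls.

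Each genotype was measured in 3 samples, with 1 Affymetrix expression array per RNA sample. Both lines were kept on gelatin with no feeder cells, in medium holding 15% serum and LIF, the cytokine that keeps them undifferentiated, at 1000 units/ml, and no interferon treatment is named in the labels. The labels do not say whether the samples of a genotype were separate cultures, nor whether the DKO cells were 1 clone, so the p-values rest on sample-to-sample spread that may be purely technical. Differences between the cell lines themselves cannot be told apart from the loss of Gsk-3.

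Gbp proteins assemble on the vacuoles and membranes of intracellular pathogens, where they help to break open the vacuole and to bring microbial products to inflammasomes. Some carry a lipid anchor that is added by prenylation enzymes. Interferon-gamma acts through its receptor and the Janus kinases Jak1 and Jak2, and many of the genes it induces hold gamma-activated sites (GAS). Genes induced by type I interferons often hold the interferon-stimulated response element (ISRE). Embryonic stem cells are known for a weak response to interferons. In the mouse the Gbp genes lie in a run on chromosome 3 (Gbp5, Gbp7, Gbp3, Gbp2b and Gbp2, in this order) and a run on chromosome 5 (Gbp8, Gbp9, Gbp4, Gbp10 and Gbp6).

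Median intensity per array was 10 to 11, and the upper quartile was 130 to 140. Both arrays of replicate 3 stood apart: the mean log2 signal of 9 spike-in control probe sets was 9.50 and 9.91 on them and between 1.73 and 1.85 on the other 4 arrays. Results are therefore also given by replicate number. Gsk3a read 145, 135 and 66 in DKO and 403, 238 and 239 in wild-type cells (log2 difference -1.38, SE 0.36, limma adjusted p = 0.0942; 0.00646 when blocked on replicate number, and 0.00646 to 0.327 over 15 alternatives). Gsk3b, on its brightest probe set, differed by -0.21 (adjusted p = 0.832). Its 5 tested probe sets differed by -0.71 to -0.02, and 0 passed. Whether these probe sets lie in the deleted parts is not known here. The defining genes of embryonic stem cells were present: the summed intensity of 12 of 12 markers, among them Pou5f1, Sox2 and Nanog, was 34767 to 37237 in wild-type and 32830 to 36514 in DKO cells. Of 11 measured markers of macrophages and other blood cells, which express Gbp genes strongly, 8 lay under the filter described below on all 6 arrays, including Ptprc, Adgre1, Csf1r and Tyrobp. Fcer1g, an Fc receptor chain of myeloid cells, was lower in DKO without overlap, at 18, 12 and 10 in wild-type and 6, 7 and 8 in DKO cells. Cd68, of macrophage lysosomes, made up much of the sum, at 118, 43 and 87 in wild-type and 159, 49 and 76 in DKO cells. The summed intensities of these 11 were 99 to 179 in wild-type and 98 to 212 in DKO cells. Those of 10 endothelial markers were 197 to 315 and 185 to 246, those of 12 fibroblast markers 295 to 544 and 321 to 572, and those of 10 primitive endoderm markers 3901 to 8008 and 5255 to 10158, so each sum overlapped between the genotypes. Single markers of these lists differed with the replicate number as a block: Tek, an endothelial receptor (-1.60, limma adjusted p = 0.00121), and Col1a1, a fibroblast collagen (-1.34, 0.00506), were lower in DKO, and Fbln1, a matrix protein (1.67, 0.0018), was higher. Without the block these probe sets did not pass (limma adjusted p = 0.0617 for Tek, 0.0805 for Col1a1 and 0.0582 for Fbln1). Over the alternatives their highest adjusted p was 0.284, 0.286 and 0.284. The other tested Col1a1 probe set differed by -0.18, and the other Fbln1 probe set, at 1.16, passed without the block. The part of these markers in the Gbp values was not tested. In such bulk samples, fewer cells of a type and less RNA per cell cannot be told apart.

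The promoters of the chromosome 3 genes are shown, and every one of them holds the same interferon-type letters. No window was available here for the other 4 members, Gbp4, Gbp6, Gbp8 and Gbp9 of chromosome 5, so the 2 runs were not compared. RefSeq windows (build GRCm38.p6, 250 bases before to 50 after an annotated transcript start) were matched for 5 of the 9 members. All 5 genes lie on the + strand, at chr3:142620413-142620712 (Gbp2), chr3:142594597-142594896 (Gbp2b), chr3:142559794-142560093 (Gbp3, the first of its 2 windows), chr3:142530086-142530385 (Gbp7) and chr3:142496684-142496983 (Gbp5). Capitals mark each match to the ISRE letters, which are GAAA, any 2 bases and GAAA again. Both strands were searched, and every match here lay on the other strand, where it reads TTTC, any 2 bases and TTTC.
Gbp2: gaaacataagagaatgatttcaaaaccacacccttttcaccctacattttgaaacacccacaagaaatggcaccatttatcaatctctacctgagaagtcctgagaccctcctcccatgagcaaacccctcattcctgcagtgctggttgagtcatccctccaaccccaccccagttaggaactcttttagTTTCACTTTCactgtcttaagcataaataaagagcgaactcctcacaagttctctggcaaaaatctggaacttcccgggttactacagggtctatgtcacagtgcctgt
Gbp2b: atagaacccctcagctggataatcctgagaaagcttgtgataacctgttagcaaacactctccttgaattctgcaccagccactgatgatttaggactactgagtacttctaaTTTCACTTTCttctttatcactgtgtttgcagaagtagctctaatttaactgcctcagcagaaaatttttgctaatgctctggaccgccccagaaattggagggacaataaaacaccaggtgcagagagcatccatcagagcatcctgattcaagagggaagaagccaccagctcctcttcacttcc
Gbp3: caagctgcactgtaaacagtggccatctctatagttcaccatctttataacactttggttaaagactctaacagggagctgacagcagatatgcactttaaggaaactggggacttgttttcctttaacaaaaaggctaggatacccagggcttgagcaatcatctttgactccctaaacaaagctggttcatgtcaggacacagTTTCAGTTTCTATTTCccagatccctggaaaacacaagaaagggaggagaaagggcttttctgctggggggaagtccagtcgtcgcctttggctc
Gbp7: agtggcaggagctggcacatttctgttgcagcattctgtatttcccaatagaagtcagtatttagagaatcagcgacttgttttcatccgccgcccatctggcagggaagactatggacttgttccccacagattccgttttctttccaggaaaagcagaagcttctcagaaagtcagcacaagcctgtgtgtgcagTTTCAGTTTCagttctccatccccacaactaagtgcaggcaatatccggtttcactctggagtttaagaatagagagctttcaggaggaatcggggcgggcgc
Gbp5: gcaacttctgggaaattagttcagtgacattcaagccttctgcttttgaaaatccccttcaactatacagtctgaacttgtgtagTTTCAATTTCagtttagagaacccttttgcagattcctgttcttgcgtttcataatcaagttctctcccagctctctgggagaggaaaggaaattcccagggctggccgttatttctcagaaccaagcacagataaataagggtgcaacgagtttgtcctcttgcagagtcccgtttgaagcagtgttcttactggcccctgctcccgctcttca

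Each of the 5 genes had the ISRE letters in a window, in 5 of 6 windows. Over all promoters in the RefSeq table, 1131 of 32851 windows (3.44%) and 1079 of 27025 genes (3.99%) had them. In Gbp2 the match lay 59 to 50 bases before the annotated start, in Gbp7 53 to 44 and in Gbp2b 137 to 128 bases before it. Gbp2 and Gbp2b had the same 10 letters, TTTCACTTTC, and Gbp7 and Gbp3 shared TTTCAGTTTC. Gbp3 had 2 overlapping matches between 45 and 30 bases before its first start and none in the window of its second start. Gbp5 matched with TTTCAATTTC, 165 to 156 bases before the start. The GAS letters TTCNNNGAA, which read the same on both strands and are found in 8.30% of all windows, occurred 2 times each in Gbp5 and Gbp7 and not in the windows of Gbp2, Gbp2b and Gbp3. The Gbp windows held 1 to 8 CpG dinucleotides each, against a median of 7 and quartiles of 3 and 20 over all windows: Gbp2b had 1, Gbp2 2, both Gbp3 windows 2, Gbp5 5 and Gbp7 8. Such matches describe the letters of a window and do not show that a factor binds there.

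**Figure D1:**
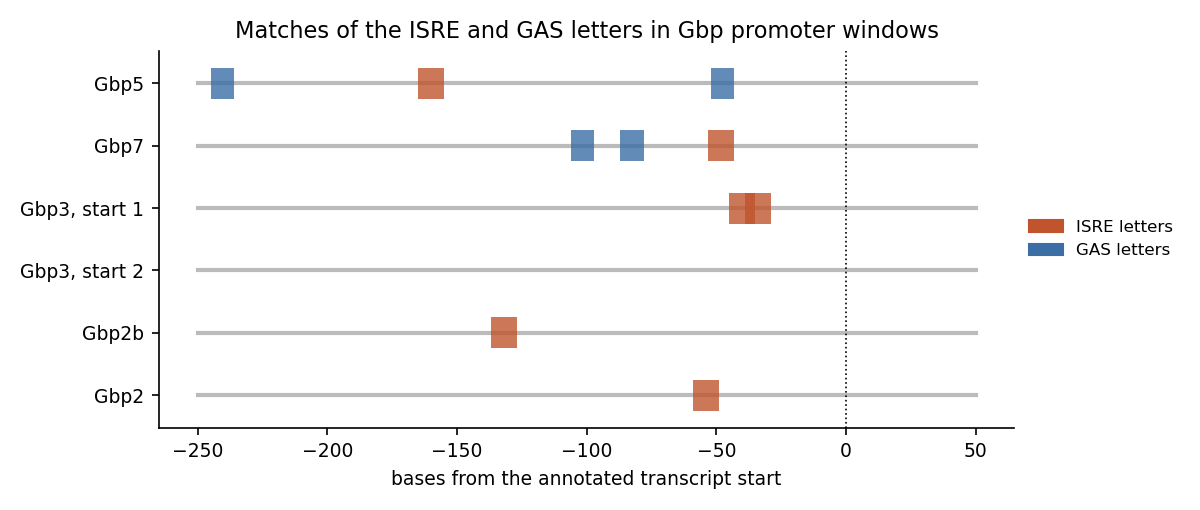
Positions of the ISRE letters (orange) and GAS letters (blue) in the promoter windows of the 5 chromosome 3 Gbp genes, in bases from the annotated transcript start (dotted line at 0). Grey lines are the windows, from 250 bases before to 50 after the start, and Gbp3 has 2 annotated starts. Each gene has ISRE letters in a window, between 165 and 30 bases before the start, and Gbp5 and Gbp7 have 2 GAS matches each.

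The 4 measurable genes of the chromosome 3 run were all brighter in wild-type cells and dim in DKO cells. Gbp2 is one of the most strongly interferon-induced members, and its protein is recruited to parasite vacuoles. Its probe set 1418240_at read 336, 108 and 113 on wild-type replicates 1, 2 and 3, and 12, 9 and 7 on the DKO arrays. Every wild-type array lay above every DKO array, and wild-type replicate 1 was the highest, 3.11-fold above the lowest wild-type array. An intensity of 16 (a log2 value of 4) was the filter below which a value was treated only as a limit. As all DKO arrays lay under it, the difference is given as a lower limit: Gbp2 was at least 10-fold lower in DKO (log2 intensity 7.32 ± 0.93 in wild-type and 3.19 ± 0.39 in DKO cells, SD, n = 3).

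The other Gbp2 probe set, 1435906_x_at, gave the same picture. It read 425, 142 and 100 in wild-type and 6, 5 and 3 in DKO cells, at least 11.4-fold lower in DKO, and at least 7.45-fold lower without wild-type replicate 1. The ending _x_at is the manufacturer's mark for a probe set with probes that also match other transcripts. Probe sequences were not used here, so the share of its signal that comes from related Gbp transcripts was not tested.

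Gbp2b, a pathogen-vacuole GTPase like Gbp2, lies next to it in the run. Its probe set read 269, 149 and 117 in wild-type and 6, 4 and 3 in DKO cells. The genotypes did not overlap, and the limit was at least 10.5-fold lower in DKO (7.39 ± 0.62 against 2.06 ± 0.50, SD, n = 3). By replicate number the limits were at least 16.8-fold, 9.31-fold and 7.31-fold.

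Gbp3, the next gene of the run, read 137, 88 and 42 in wild-type and 4, 5 and 5 in DKO cells. It was at least 4.98-fold lower in DKO (6.32 ± 0.86 against 2.21 ± 0.19, SD, n = 3). Its lowest wild-type array was replicate 3, and by replicate number the limits were at least 8.56-fold, 5.5-fold and 2.62-fold.

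Gbp7, whose protein takes part in assembling the host's oxidant-producing and autophagy machinery at pathogen vacuoles, had 2 probe sets. The brighter, 1434380_at, read 90, 90 and 49 in wild-type and 10, 12 and 8 in DKO cells, at least 4.59-fold lower in DKO (6.20 ± 0.51 against 3.30 ± 0.29, SD, n = 3). The other, 1425156_at, read 8, 6 and 6 in wild-type and 4, 5 and 5 in DKO cells. These values also did not overlap, but all 6 lay under the filter, so no fold is given.

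On chromosome 5 no such difference was measurable. Gbp6 had 2 probe sets that read 4, 6 and 5 and 7, 6 and 4 in wild-type and 6, 9 and 5 and 5, 9 and 5 in DKO cells. Gbp8 read 8, 5 and 3 in wild-type and 5 on each DKO array. All these values lay under the filter and overlapped between the genotypes, so a difference in Gbp6 or Gbp8 was not detectable. The probe set assigned to both Gbp8 and Gbp4 was bright in both genotypes, at 214, 80 and 70 in wild-type and 160, 124 and 87 in DKO cells. The genotypes overlapped, and their means were 6.73 ± 0.88 and 6.91 ± 0.44 (log2, SD, n = 3). The DKO array was lower in replicate 1, by a log2 difference of -0.42, and higher in replicates 2 and 3, by 0.63 and 0.31. Which of the 2 genes gives this signal cannot be told from the shared probe set.

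**Figure D2:**
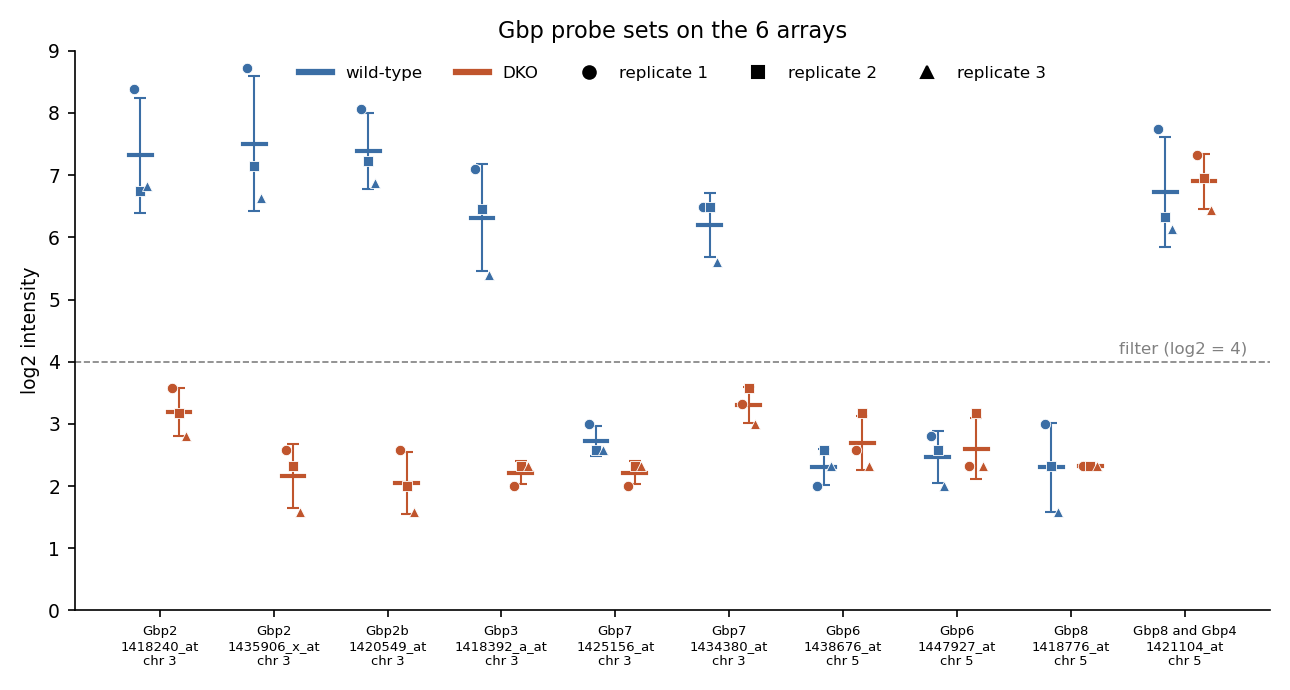
Log2 intensity of the 9 single-gene Gbp probe sets and the 1 shared probe set (x axis: gene, probe set and chromosome) on 3 wild-type (blue) and 3 DKO (orange) arrays, with replicate number as the symbol. Bars are means and error bars SD, and the dashed line is the filter at 4. The 5 bright single-gene probe sets, all on chromosome 3, lie above the filter in wild-type and below it in DKO cells, and the shared probe set lies above it in both.

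Wild-type replicate 1 read highest of the wild-type arrays in 5 of the 6 tested Gbp probe sets, the shared one included, and tied with replicate 2 in Gbp7. Over all tested probe sets that array was the highest of the wild-type arrays in 35.9%. On the log2 scale it exceeded the mean of wild-type replicates 2 and 3 by 1.60 and 1.83 in the Gbp2 probe sets, 1.03 in Gbp2b, 1.17 in Gbp3, 0.44 in Gbp7 and 1.52 in the shared probe set, where the median over all tested probe sets was 0.02. Without that array the limits were at least 6.90-fold for Gbp2, 8.25-fold for Gbp2b, 3.80-fold for Gbp3 and 4.15-fold for Gbp7. In the arrays of replicate 3 alone, the limits were 7.06-fold, 7.31-fold, 2.62-fold and 3.06-fold. On these probe sets every wild-type array lay above the filter and every DKO array under it. Leaving out an array therefore could not bring an overlap, and these limits do not test stability.

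In the fit across all 20841 tested probe sets (limma, adjusted p under 0.05), the 5 bright single-gene probe sets, and so 4 of 4 Gbp genes with a tested probe set, were called lower in DKO. Over all genes 2.50% of 10496 were called lower, and over all probe sets 1.93% were called lower and 3.24% in either direction. Blocking on replicate number, the same 4 genes were called, beside 5.63% of all genes and 5.26% of all probe sets called lower and 9.57% of probe sets in either direction. The arrays of the genotypes failed to overlap, with DKO lower, in 10.4% of genes and 9.17% of probe sets. Nothing is read from this count, since the family was chosen on this contrast. In addition, all 5 probe sets passed the filter on low values through the wild-type arrays alone, as did 193 of the 20841 tested probe sets (0.926%), and in a probe set that passes in this way the genotypes cannot overlap. The remaining 4 single-gene probe sets, with intensities of 3 to 9, did not enter the fit.

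The genes with the most similar profile were sought among 10151 other tested genes, as the smallest root-mean-square distance between log2 profiles over the 6 arrays, each minus its own mean. For Gbp2 they were Gbp3 (0.48), Myrf, a membrane-bound transcription factor (0.56), and Spink1, a trypsin inhibitor (0.58). For Gbp2b they were Enpp3, an ectonucleotidase (0.43), Gbp2 (0.64) and Fndc3c1 (0.75). For Gbp3 they were Spink1 (0.36), Myrf (0.44) and Crmp1, a collapsin response mediator (0.45). Among the Gbp probe sets themselves, the distance was smallest between 1435906_x_at of Gbp2 and Gbp2b (0.29) and largest between 1435906_x_at and Gbp7 (1.33). All these distances use DKO values of the Gbp genes that lie under the filter, so the order of the distances is a description of the deposited values only. The distances also include the genotype difference on which the family was chosen. Gbp2 differed by -4.14, and its nearest genes Gbp3, Myrf and Spink1 by -4.10, -4.01 and -4.20. Similarity apart from that difference was not tested.

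The genes next to the Gbp runs were compared in the same fit. Of the 5 protein-coding genes on each side of each run, 13 of 20 had a single-gene probe set, 9 were tested and 0 passed (limma, 0 at an unadjusted p under 0.05 and 0 with the replicate number as a block). Next to Gbp2, Kyat3, a kynurenine aminotransferase, read 75, 63 and 53 in wild-type and 89, 130 and 65 in DKO cells, a log2 difference of 0.53 (SE 0.30, adjusted p = 0.558). On the far side of Gbp5, Pdlim5, a PDZ and LIM domain protein, differed by -0.40 (SE 0.26, adjusted p = 0.632). Gtf2b, a general transcription factor, differed by 0.03, Pkn2, a protein kinase, by -0.35 and Lmo4, a LIM-only protein, by -0.34. Bmpr1b, a BMP receptor, read 18, 18 and 10 in wild-type and 5, 5 and 7 in DKO cells, too dim for the filter, and Unc5c and Pdha2 read 3 to 5 on all arrays, with Pdha2 at 4 on each wild-type and 3 on each DKO array. Near the chromosome 5 run, Lrrc8c differed by -0.79 (SE 0.64, adjusted p = 0.736), Zfp326 by -0.52, Zfp33b by 0.20 and Lrrc8d, like Lrrc8c a volume-regulated channel subunit, by 0.01, and Abcg3 read 3 to 5 on all arrays. The 9 tested neighbours had a median difference of -0.34, against 0.00 over all tested genes. Bmpr1b, Pdha2 and the tested Zfp326 were lower in DKO without overlap, as were 10.4% of all tested genes. A p over the threshold does not show that a neighbour was equal in both genotypes.

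**Figure D3:**
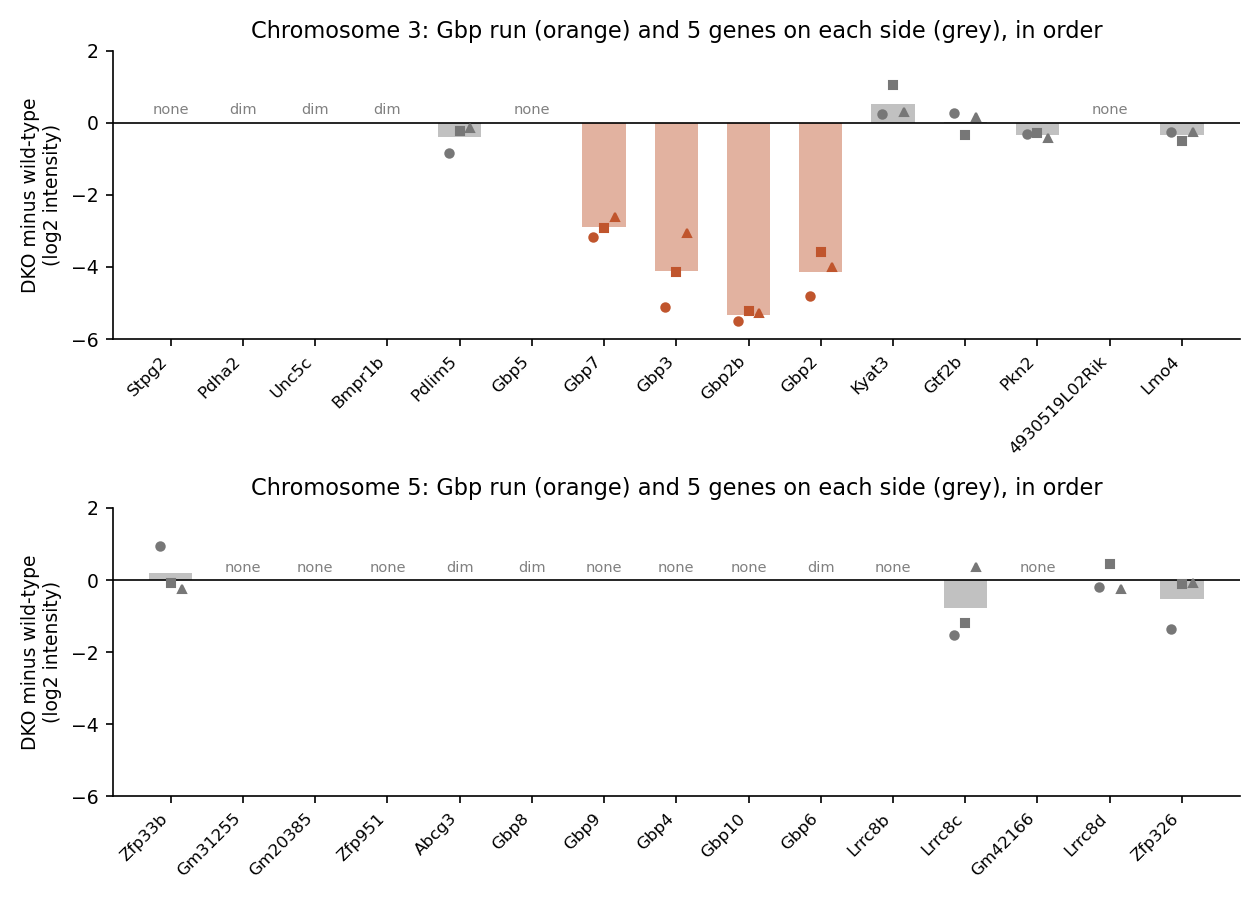
Log2 difference, DKO minus wild-type, for the Gbp genes (orange) and the 5 protein-coding genes on each side (grey) of the runs on chromosomes 3 and 5, in RefSeq order. Bars are differences of means, symbols the differences by replicate number (circle 1, square 2, triangle 3), "dim" marks genes whose probe sets did not pass the filter and "none" genes with no single-gene probe set used here. The 4 Gbp bars lie at -2.90 to -5.33 and rest on DKO values under the filter, so their order is not known, and the tested neighbours lie between -0.79 and 0.53.

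Genes upstream in the interferon pathway gave no call without the replicate block, each read on its brightest probe set. In simulated data the fit recovered 14% of log2 changes of 1 and 98% of changes of 2. A gene of these lists that did not pass is therefore not shown to be equal in both genotypes. Of 9 interferon ligands, 5 had a probe set and none passed the filter in either genotype: Ifnb1 read 3 on every array, Ifng 2 to 3 and Ifna1 5 to 11. Of 8 tested receptors and Janus kinases, 0 passed (limma, 2 at an unadjusted p under 0.05, and 2, Ifngr2 and Tyk2, higher with the replicate number as a block). Ifngr2, the signalling chain of the interferon-gamma receptor, read 18, 11 and 17 in wild-type and 37, 28 and 31 in DKO cells, with no overlap (log2 difference 1.08, SE 0.27, adjusted p = 0.0787; 0.0105 with the block, and 0.0105 to 0.311 over 14 alternatives). Ifngr1, the ligand-binding chain, read 21, 18 and 18 in wild-type and 14, 16 and 17 in DKO cells, lower and also with no overlap (difference -0.28, SE 0.23, adjusted p = 0.733). Jak1 differed by 0.46 (SE 0.34, adjusted p = 0.699) and Jak2 by -0.14 (SE 0.31, adjusted p = 0.926).

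Among 6 tested transcription factors of the STAT and IRF families 0 passed (limma, 2 at an unadjusted p under 0.05 and 0 with the block). Irf1, an interferon-induced activator of Gbp genes, read 86, 70 and 120 in wild-type and 77, 96 and 66 in DKO cells, and the genotypes overlapped (difference -0.19, SE 0.28, adjusted p = 0.884). Irf9 differed by 0.55 (SE 0.23, adjusted p = 0.334) and Irf4, a factor of lymphocytes with the largest difference of the 6, by -0.72 (SE 0.29, adjusted p = 0.324). Among those too dim to test, Nlrc5, an activator of antigen presentation genes, read 12, 15 and 17 in wild-type and 6, 7 and 9 in DKO cells. Irf2 read 16, 9 and 12 and 8, 6 and 7, so both were lower in DKO without overlap. Stat2 read 9, 9 and 8 in wild-type and 12, 12 and 13 in DKO cells, higher in DKO without overlap. Irf8 and Irf7 read 3 to 5 on all arrays. Of 10 tested inhibitors 0 passed (limma, 1 at an unadjusted p under 0.05, and 1, Pias1, lower with the block; its difference was -0.85, adjusted p = 0.12, and 0.033 to 0.437 over 15 alternatives). Socs1, the feedback inhibitor of the Janus kinases, read 3 to 4 on all arrays. Usp18, also too dim to test, read 11, 8 and 9 in wild-type and 6, 4 and 7 in DKO cells, lower without overlap.

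Other interferon-induced genes moved in both directions. Among 24 tested, 3 fell and 1 rose, 20 did not pass, and the median log2 difference was -0.17. Over all genes 2.50% fell and 1.64% rose, and 5.63% and 5.07% with the replicate block. Psmb8, a subunit of the immunoproteasome, read 25, 19 and 21 in wild-type and 8, 7 and 6 in DKO cells, at least 1.35-fold lower (limma adjusted p = 0.00705). Psmb8 passed in 13 of 14 alternatives (highest limma adjusted p = 0.0959). It passed the filter through the wild-type arrays alone, as the Gbp genes did. Leaving out Psmb8 and Oas3, which did the same, 2 of 22 genes fell and 1 rose. Psmb10, also of the immunoproteasome, fell from 477, 490 and 532 to 232, 193 and 226 (difference -1.21, SE 0.22, adjusted p = 0.0211). Ifitm1, a membrane protein that blocks virus entry and is also found in early embryonic cells, fell from 2575, 1605 and 1688 to 849, 634 and 442 (difference -1.62, SE 0.32, adjusted p = 0.0261). Leaving out 1 array at a time, the call of Psmb10 was lost in 5 of 6 fits, all but that without DKO replicate 3 (highest adjusted p = 0.0947). The call of Ifitm1 was also lost in 5, all but that without wild-type replicate 3 (highest adjusted p = 0.0971).

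Oas1a, a sensor of double-stranded RNA and the only gene of the list that rose, read 21, 19 and 52 in wild-type and 182, 176 and 234 in DKO cells (difference 2.83, SE 0.38, adjusted p = 0.00463; 0.053 without DKO replicate 1). Oas1a passed in 13 of 15 alternatives (highest limma adjusted p = 0.0943). Its promoter window also holds the ISRE letters. With the replicate number as a block 6 of the 24 genes fell and 1 rose, the added ones being Oas3 (at least 1.45-fold lower), Bst2 (difference -0.98) and Ifitm3 (-1.01). Many of the classical interferon-induced genes were dim in both genotypes: Ifit1, Ifit3, Mx1, Mx2 and Oasl1 read 3 to 7 on all arrays. Of the genes of the list that were too dim to test, 3 were lower in DKO without overlap (43 genes of the list had a probe set and 24 were tested). The share of all dim genes without overlap was not computed, so nothing is read from this count. Zbp1, a sensor of nucleic acids, read 43, 27 and 15 in wild-type and 10, 11 and 12 in DKO cells. Oasl2 read 15, 10 and 11 against 5, 5 and 4, and Rsad2, an antiviral enzyme, read 9, 7 and 6 against 3, 4 and 3.

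The immunity-related GTPases, a second family with many interferon-induced members that act at the same vacuoles, had 3 tested members. Irgq, an atypical member, read 164, 138 and 134 in wild-type and 50, 49 and 45 in DKO cells and fell by 1.59 on the log2 scale (SE 0.22, adjusted p = 0.00545). It passed in all 15 alternatives fitted. Whether Irgq responds to interferon was not tested. Irgm1, a regulator of the family, read 213, 147 and 104 against 57, 95 and 104 (difference -0.84, SE 0.34, adjusted p = 0.322), with differences of -1.90, -0.63 and 0.00 in replicates 1, 2 and 3. Igtp (Irgm3) read 46, 22 and 10 against 60, 29 and 14, and Iigp1, one of the most strongly induced effectors, read 3 to 4 on all arrays. Irgm2, too dim to test, read 6, 8 and 7 in wild-type and 12, 10 and 11 in DKO cells, higher in DKO without overlap.

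Of 7 tested atlastin and dynamin GTPases, which are structurally related to Gbp proteins, 0 passed (limma, 0 at an unadjusted p under 0.05 and 0 with the block). The largest difference was that of the mitochondrial fusion protein Mfn1, at 0.52 (adjusted p = 0.446). Of 8 tested prenylation enzymes 0 passed (limma, 1 at an unadjusted p under 0.05 and 0 with the block). The largest difference was that of Icmt, which methylates prenylated proteins, at -0.56 (adjusted p = 0.357). Among 3 tested inflammasome genes, Aim2, a sensor of cytosolic DNA, rose from 187, 234 and 137 to 421, 604 and 564 (difference 1.53, SE 0.28, adjusted p = 0.0212). Its call was lost without any of the 3 DKO replicates in turn and without wild-type replicate 3 (highest adjusted p = 0.0939). Casp1, Nlrp3 and Il1b read 2 to 6 on all arrays. Gsdmd, also too dim to test, read 10, 9 and 9 in wild-type and 15, 11 and 15 in DKO cells, higher in DKO without overlap. Of 13 tested toll-like receptor and NF-kB genes 1 rose: Sting1, the adaptor of cytosolic DNA sensing, read 8, 6 and 6 in wild-type and 24, 27 and 28 in DKO cells, at least 1.64-fold higher (adjusted p = 0.00234). It passed the filter through the DKO arrays alone, and of the other 12 genes 0 passed without the block. With the block 4 rose and 1 fell: Cgas, which makes the ligand of Sting1 (difference 1.45), Tlr2 (1.24), Relb (0.93) and Sting1 were higher, and Tlr3, a receptor for double-stranded RNA, was lower (-1.31).

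Together, 82 genes of the pathway lists were tested, of which 4 fell, 3 rose and 75 did not pass, with a median difference of 0.06. This was 8.54%, against 4.13% of all tested genes. Without the genes that passed the filter through 1 genotype alone, where the arrays cannot overlap, 3 of 79 fell and 2 rose (6.33%), against 2.96% of 10293 genes. The genes so left out were Psmb8, Sting1 and Oas3. With the replicate number as a block 9 fell and 8 rose (20.7%, against 10.7% of all tested genes), and with the spike-in group as a block 8 fell and 5 rose. Without DKO replicate 1 the count that passed was 3, and without DKO replicate 2 it was 4.

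Other genes with the ISRE letters fell and rose. Of 294 tested genes other than Gbp genes with these letters in a promoter window, 8 fell (2.72%) and 4 rose (1.36%), with a median difference of -0.02. Of 8269 tested genes with a window but without the letters, 184 fell (2.23%) and 129 rose (1.56%). With the replicate number as a block 24 of the genes with the letters fell (8.16%) and 15 rose (5.10%), against 433 (5.24%) and 402 (4.86%) of those without. Of the 12 genes that passed with the letters, Erap1, a peptide-trimming enzyme of antigen presentation, differed by -1.75 (adjusted p = 0.00753), and Trim12c and Trim34a, of the tripartite motif family, by -1.72 and -1.17 (adjusted p = 0.0392 and 0.0291). Tnfrsf1b, a receptor for tumour necrosis factor, differed by 1.68 (adjusted p = 0.0112). These 4 were named after their values were seen. Of the other genes that passed, Selenop had the largest fall of all 12 (-2.41, limma adjusted p = 0.0014). Igf2 (-2.16), Piwil4, Pde1b and Wls also fell, and Oas1a, Pnma5 and Slc13a4 rose. Of 12 tested pathway genes with the letters, 1 passed, Oas1a, which rose. The difference between genes with and without the letters was not tested.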

How the data were processed

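Each array's deposited values are 1 whole-number intensity for each probe set, made by the authors on an unstated scale. The values were treated as linear and converted to log2 here. RNA (25 ng) was amplified and labelled as biotinylated cDNA, per the labels' protocols. Tools named in the submitters' processing notes, without roles, are limma 2.16.5, GCRMA 2.14.1, R 2.8.0 and GCOS. Whole numbers make low values coarse, and with 6 arrays precision is limited.

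Gene names came from the platform annotation, updated through RefSeq (GRCm38.p6; 34754 of 34958 single-gene probe sets matched). Probe sets other than controls entered the test with a log2 value of at least 4 on at least 3 of 6 arrays. The genotypes, grouped by sample title, were compared with limma 3.58.1 in R 4.3.3 (two-sided, Benjamini-Hochberg over 20841 probe sets, threshold 0.05), tested first on simulated data. That simulation recovered 14% of log2 changes of 1 and 98% of changes of 2, with 16 false calls. A gene was read on its brightest tested probe set. Where 1 genotype lay under the filter on all its arrays, the fold sets the bright group's mean against, per array, the higher of 4 and the log2 value.

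Members, gene lists and naming rule were chosen with earlier results of these data known. The rule took all Gbp probe sets and neighbours, a set of interferon and control genes, up to 4 genes per list that passed (otherwise the largest difference), and the 3 nearest profiles of Gbp2, Gbp2b and Gbp3, without clone-named and predicted genes. Further list genes are named as examples of dim genes or of calls made with the block, after their values were seen.

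No 2 arrays had the same value in more than 1.79% of tested probe sets. Deviations from the genotype mean correlated at 0.427, 0.354 and 0.595 between same-numbered arrays, each over 0.1, so by that rule the replicate numbers pair the samples, although their meaning is not in the labels. DKO replicate 2 and wild-type replicate 1 also correlated at 0.113. The replicate number was a block in an alternative only. Other alternatives left out arrays, used replicates 1 and 2 only, blocked on the spike-in group, or changed normalization, filter, pseudocount or moderation.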

Additional observations from a re-analysis of the deposited data

How the results depend on the processing

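Over the alternatives the log2 differences of the Gbp genes on chromosome 3 ran from -4.42 to -2.82 and -5.78 to -3.28 for the 2 probe sets of Gbp2, -5.59 to -3.18 for Gbp2b, -4.62 to -2.24 for Gbp3 and -3.19 to -1.80 for Gbp7, the smallest sizes being those of log2(intensity + 16), and the shared Gbp8 and Gbp4 probe set ran from -0.13 to 0.68. The count of Gbp genes that passed says nothing about stability, since the family was chosen on this contrast and the filter keeps its genotypes from overlapping. It was 4, 4 in each of the 6 fits with 1 array left out, 3 without a filter, and 2 with a log2 filter of 6, which left 2 of them to test.

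The count of probe sets that passed (675) was 1995 with the replicate number as a block, 1117 with the spike-in group as a block, 440 in replicates 1 and 2 only and 373 with the log2 filter of 6, and 290 to 604 in fits with 1 array left out. The count of pathway genes that passed (7) was 17 with the replicate block, 13 with the spike-in group as a block, 4 without a filter and 3 to 6 in fits with 1 array left out. No neighbouring gene passed except in the fit without a filter, where 1 did, Pdha2, at intensities of 4 on each wild-type and 3 on each DKO array. The replicate block changed the call of no neighbour. Dim signal limits the DKO values of all Gbp genes of chromosome 3 and both values of Gbp6 and Gbp8.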
